A study of Mus musculus with 4 samples.

Results

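Adipokines and metabolic hormones are secreted proteins through which fat, liver and muscle signal to other tissues. The set described here has 9 genes, Adipoq, Lep, Retn, Cfd, Angptl4, Apoe, Fgf21, Apln and Nampt, which were chosen by name out of the 21878 genes of the mRNA table. All 9 were found, with 17 transcript rows between them, and the transcripts of each gene were summed. RNA had been sequenced from C3H10T1/2 cells, a mouse line of multipotent mesenchymal cells from C3H embryos, in 2 groups of 2 samples each. Untreated replicates 1 and 2 were the controls. 5-AZA replicates 101 and 102 had received 20 μM 5-AZA (5-azacytidine, a cytidine analogue that lowers DNA methylation) for 72 hours, followed by 21 days in fresh medium. The labels give no culture time for the untreated samples, so the drug and the weeks of culture cannot be told apart. Both groups were cultures of this 1 line, and no genotype differed between them. The study calls the samples of a group biological repeats, without further detail on the cultures.

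Most of these proteins are made by fat cells. Adiponectin (Adipoq), resistin (Retn) and factor D (Cfd, also called adipsin) are products of maturing adipocytes, and leptin (Lep) is the adipocyte hormone that signals energy stores to the brain. Angptl4 is a secreted inhibitor of lipoprotein lipase, and Apoe is the lipid-carrying ligand of the lipoprotein receptors. Fgf21 is an endocrine growth factor of liver, fat and stressed muscle, apelin (Apln) is a peptide ligand of a G protein-coupled receptor, and Nampt is the rate-limiting enzyme of NAD salvage, also found outside cells under the name visfatin. C3H10T1/2 cells are known to be able to form muscle, fat and cartilage cells after 5-AZA.

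The 250 bases before the start site are shown for 7 genes. Adipoq, Retn, Cfd and Fgf21 were higher after 5-AZA and Apln was lower. Lep was barely listed in any sample, and the level of Nampt moved least among the genes tested. The sequences are those of RefSeq on GRCm38.p6, written 5′ to 3′ on the strand of the gene, with each CG in capitals.
Adipoq, chr16:23146286-23146535, plus strand: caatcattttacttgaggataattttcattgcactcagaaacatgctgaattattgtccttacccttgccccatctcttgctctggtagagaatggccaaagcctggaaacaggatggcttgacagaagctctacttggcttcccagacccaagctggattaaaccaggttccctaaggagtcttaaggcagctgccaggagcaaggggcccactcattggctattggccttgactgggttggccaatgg
Retn, chr8:3655520-3655769, plus strand: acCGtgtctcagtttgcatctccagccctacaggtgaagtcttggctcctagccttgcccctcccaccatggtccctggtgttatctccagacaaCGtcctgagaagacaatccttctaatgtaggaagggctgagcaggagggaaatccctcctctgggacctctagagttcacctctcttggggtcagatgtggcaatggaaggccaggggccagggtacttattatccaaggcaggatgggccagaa
Cfd, chr10:79890603-79890852, plus strand: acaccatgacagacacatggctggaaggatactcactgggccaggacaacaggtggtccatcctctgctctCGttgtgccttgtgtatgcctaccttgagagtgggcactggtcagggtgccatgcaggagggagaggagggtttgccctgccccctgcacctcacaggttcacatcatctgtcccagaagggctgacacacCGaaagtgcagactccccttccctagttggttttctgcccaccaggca
Fgf21, chr7:45615491-45615740, minus strand: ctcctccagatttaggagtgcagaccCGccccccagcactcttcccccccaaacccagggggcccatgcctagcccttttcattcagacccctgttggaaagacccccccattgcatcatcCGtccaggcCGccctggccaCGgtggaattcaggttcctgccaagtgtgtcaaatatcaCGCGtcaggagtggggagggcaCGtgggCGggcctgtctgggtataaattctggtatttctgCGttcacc
Apln, chrX:48034854-48035103, minus strand: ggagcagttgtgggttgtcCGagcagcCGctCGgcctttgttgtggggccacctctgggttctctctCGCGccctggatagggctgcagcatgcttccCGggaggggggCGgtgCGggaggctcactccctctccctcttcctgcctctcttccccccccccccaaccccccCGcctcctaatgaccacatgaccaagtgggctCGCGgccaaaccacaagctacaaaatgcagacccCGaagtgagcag
Lep, chr6:29059971-29060220, plus strand: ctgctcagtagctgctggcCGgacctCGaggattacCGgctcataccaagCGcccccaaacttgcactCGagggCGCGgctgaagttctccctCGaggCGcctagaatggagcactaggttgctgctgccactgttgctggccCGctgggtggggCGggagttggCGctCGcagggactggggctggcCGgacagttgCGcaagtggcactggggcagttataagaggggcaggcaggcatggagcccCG
Nampt, chr12:32820085-32820334, plus strand: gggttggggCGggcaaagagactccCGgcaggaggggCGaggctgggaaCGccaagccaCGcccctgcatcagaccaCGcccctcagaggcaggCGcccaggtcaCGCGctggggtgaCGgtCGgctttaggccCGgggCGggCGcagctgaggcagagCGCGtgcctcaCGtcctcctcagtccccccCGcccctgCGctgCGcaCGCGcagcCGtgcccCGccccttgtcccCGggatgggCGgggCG

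The windows differed widely in CG. Adipoq had 0 CG dinucleotides, and 7.87% of the 32851 RefSeq start-site windows of all genes also had none. Retn and Cfd had 2 each, a count that 29.0% of all windows did not exceed, and the median window had 6. Fgf21 had 9, Apln 12 and Lep 16, and the 3 windows listed for Apoe had 8, 9 and 10. Nampt had 27, and 91.4% of all windows had fewer. Angptl4 is the member that has no window here. DNA methylation was not measured in these samples.

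**Figure D1:**
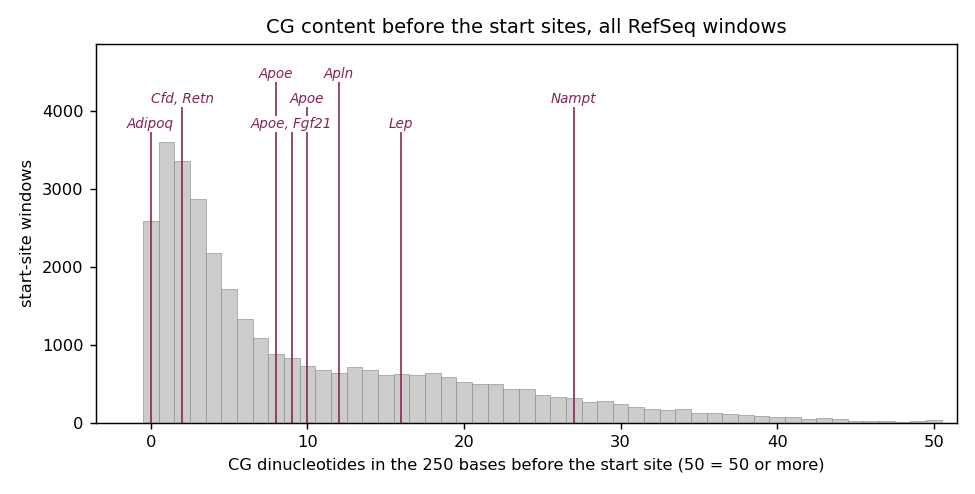
Number of start-site windows (y axis) by the number of CG dinucleotides in the 250 bases before the start site (x axis), for 32851 RefSeq windows; vertical lines mark the windows of 8 genes of the set, with 3 for Apoe. Adipoq (0) and Retn and Cfd (2 each) sit at the low end, and Nampt (27) lies far to the right.

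Short motifs were also counted on both strands of these windows. TTGCGCAA, a palindrome that C/EBP factors can bind, was found in Lep and in 0.164% of all windows. TTGCATCA, a form of the element bound by Atf4, was found in Fgf21 (0.791% of all windows), and so were CACGTG (6.02%) and TATAAA (12.4%). TATAAA also stood in Apoe. Adipoq held 3 copies of CCAAT, which 33.8% of all windows hold. AGGTCA, a sequence that nuclear receptors bind, stood in Nampt alone among these genes (14.0% of all windows). CACGTG and TTGCGCAA each contain a CG, which was also counted above. The motifs were picked from known binding sequences, and a match is a description of the letters only.

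The authors deposited FPKM values (fragments per kilobase of transcript, scaled to the mapped fragments of the sample), and these summed to between 328410 and 361664 over the mRNA rows of a sample. FPKM values are scaled by length, so levels can be compared between genes, but the number of reads behind each value is unknown. Of 14 mesenchymal markers read to check the labelled line, 13 were tested, 7 with positive and 6 with negative log2 changes. The 4 most abundant, S100a4 (-0.98), Vim (-0.87), Col3a1 (0.78) and Col1a2 (-0.37), stood at 419.8 FPKM or more in every sample. They were not called because they stayed under the 2-fold limit, with adjusted p-values from 7.00e-04 to 0.0381 (limma). In each untreated sample 12 of the 14 reached 1 FPKM. Thy1 (0.578 and 0.785 FPKM) and Nt5e (0 in both), named after their values were seen, did not. None of 10 housekeeping genes was listed at 0 in any sample.

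The summed level of the 9 genes was 61.3 and 55.4 FPKM in untreated replicates 1 and 2 and 408 and 579 FPKM in 5-AZA replicates 101 and 102. Of the 9 genes, 5 reached 1 FPKM in each untreated sample and 8 in each 5-AZA sample. Changes were tested with limma on log2(FPKM + 0.1) over the 13199 genes with a mean of at least 0.1 FPKM, and a call required more than a 2-fold change together with a Benjamini-Hochberg adjusted p under 0.05. Of the 8 genes of the set that passed this limit, 6 were called higher and 1 lower, while 13.1% of all genes tested were called higher and 1.32% lower. Lep did not pass it, and Fgf21 passed it only through the 5-AZA samples, so it had to differ. In 7 genes both 5-AZA samples were above both untreated samples and in 1 both were below, an absence of overlap that 36.8% and 25.4% of all genes tested had in these directions. With quantile normalization the split over all genes changed from 1724 higher and 174 lower to 1041 and 886, and the median log2 change of all genes tested moved from 0.05 to -0.12. The same numbers of genes of the set, 6 higher and 1 lower, were called under it.

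**Figure D2:**
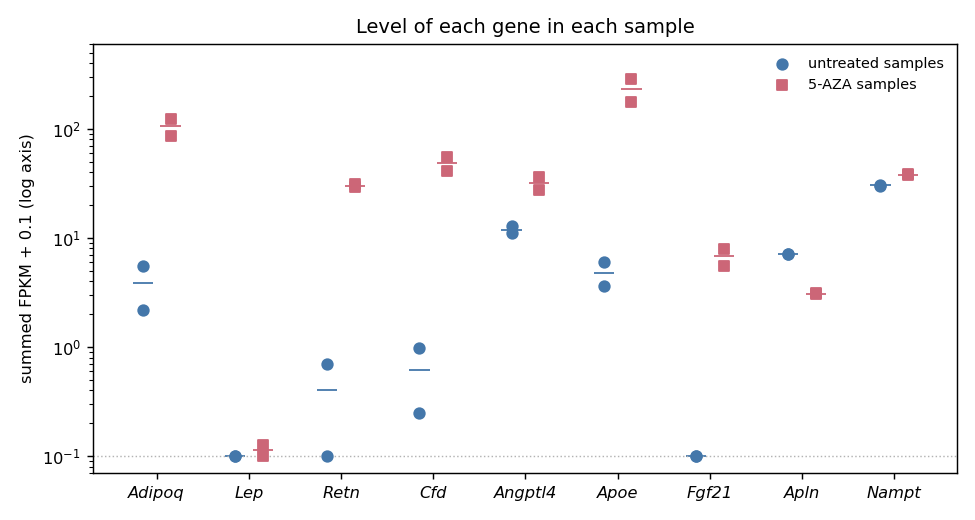
Summed FPKM + 0.1 (y axis, log scale) of each of the 9 genes in the 2 untreated samples (circles) and the 2 5-AZA samples (squares); short bars are the group means and the dotted line is a value of 0. Adipoq, Retn, Cfd, Apoe and Fgf21 lie farthest apart between the groups, Apln is the gene that lies lower after 5-AZA, and Lep stays at the dotted line.

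Among the adipocyte hormones, Adipoq was listed at 5.45 and 2.10 FPKM in untreated replicates 1 and 2 and at 86.8 and 123 FPKM in 5-AZA replicates 101 and 102. Both 5-AZA samples were far above both untreated samples, and untreated replicate 1 was the higher of its pair. The group means were 3.78 ± 2.37 and 105 ± 25.9 FPKM (SD, n = 2), and Adipoq rose by 4.89 on the log2(FPKM + 0.1) scale (standard error 0.36, adjusted p = 2.41e-05, limma). In bulk RNA of this kind, more cells that express a gene and more of its RNA in each cell cannot be told apart.

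Retn was listed at 0.600 and 0 FPKM in the untreated samples and at 29.1 and 31.0 FPKM in the 5-AZA samples. The 5-AZA pair was almost equal, whereas in the untreated pair 1 sample was listed at 0. Retn rose by 6.83 on the log2 scale (standard error 0.71, adjusted p = 1.68e-04, limma), and the standard error was the widest of the set. With 1 control at 0 the size of this change depends on the pseudocount, and the log2 change was 4.62 with 1 FPKM and 8.59 with 0.01 FPKM. Of its 2 RefSeq transcripts, NM_001204959.1 carried 97.9% of the 5-AZA level and NM_022984.4 carried 2.08%.

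Lep was listed at 0 FPKM in both untreated samples and in 5-AZA replicate 101, and at 0.0274 FPKM in 5-AZA replicate 102. Thus leptin RNA was at or near 0 in samples where the other adipocyte hormones reached 29.1 FPKM or more. Without the limit on low values, its log2 change was 0.17 (adjusted p = 0.512, limma).

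Cfd, the serine protease that cleaves complement factor B in the alternative pathway, was listed at 0.887 and 0.146 FPKM in the untreated samples and at 40.8 and 55.6 FPKM in the 5-AZA samples. The groups did not overlap, although untreated replicate 1 stood 6.08 times above untreated replicate 2. Cfd rose by 6.60 on the log2 scale (standard error 0.52, adjusted p = 3.56e-05, limma). Both of its transcripts were called higher in a fit on transcripts, NM_001291915.1 (adjusted p = 0.00586, limma) and NM_013459.3 (adjusted p = 0.0165, limma). They made up 56.4% and 43.6% of the 5-AZA level, but they share exons, and the authors' quantification may divide reads between them in more than 1 way.

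Angptl4 was already present without 5-AZA, at 10.9 and 12.8 FPKM, and was listed at 27.5 and 36.0 FPKM after it. The mean went from 11.8 ± 1.32 to 31.8 ± 6.02 FPKM (SD, n = 2), which is 2.68 times the untreated mean. On the log2 scale Angptl4 rose by 1.41 (standard error 0.15, adjusted p = 2.10e-04, limma), the smallest of the 6 rises.

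Apoe had the highest level of the set after 5-AZA, 177 and 285 FPKM, against 5.91 and 3.52 FPKM in the untreated samples. Its untreated mean was above that of 65.8% of all genes and its 5-AZA mean above that of 99.0%. Apoe rose by 5.59 on the log2 scale (standard error 0.26, adjusted p = 2.10e-06, limma). Of its 4 transcripts, NM_009696.4 carried 99.8% of the 5-AZA level.

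Fgf21 was listed at 0 in both untreated samples and at 5.48 and 7.86 FPKM in the 5-AZA samples, carried by NM_020013.4 of its 3 transcripts. It was called higher (adjusted p = 2.55e-06, limma), but it passed the limit on low values only through the 5-AZA samples, so its direction was fixed in advance. Since both controls are at 0, no fold is given, and the fitted log2 difference was set by the pseudocount: 6.06 with 0.1 FPKM, 2.92 with 1 FPKM and 9.36 with 0.01 FPKM.

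Apln was the gene of the set that was lower after 5-AZA. It was listed at 7.0 and 7.02 FPKM in the untreated samples and at 3.01 and 2.93 FPKM in the 5-AZA samples, and both pairs were nearly equal. The untreated mean was 2.36 times the 5-AZA mean, and Apln fell by 1.21 on the log2 scale (standard error 0.16, adjusted p = 5.80e-04, limma).

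Nampt was the highest gene of the set in untreated cells, at 30.5 and 29.8 FPKM, and stood at 38.1 and 37.3 FPKM in the 5-AZA samples. The groups did not overlap, and the 5-AZA mean was 1.25 times the untreated mean. The log2 change was 0.32 (95% interval 0.10 to 0.54, adjusted p = 0.0429, limma), which stays under the 2-fold limit of a call. On the linear scale this interval runs from 1.07 to 1.46 times.

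**Figure D3:**
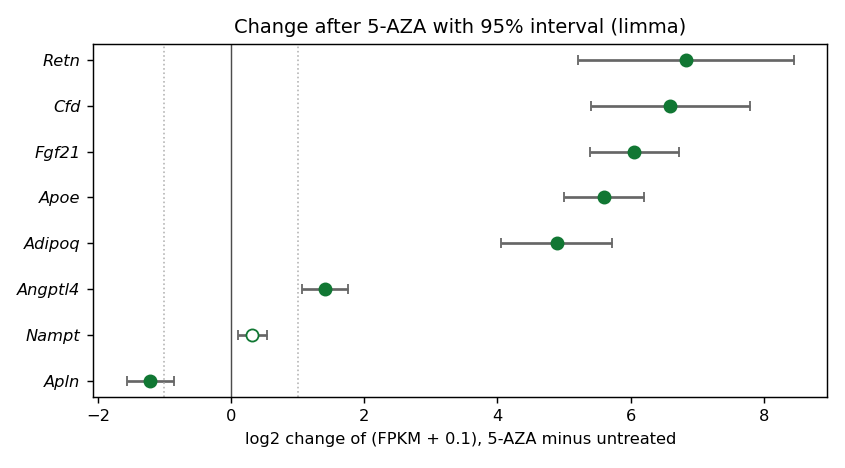
Log2 change of (FPKM + 0.1), 5-AZA minus untreated (x axis), of the 8 genes tested, with 95% intervals from limma over 2 samples a group; filled points were called, the open point was not, and dotted lines mark 2-fold. Retn, Cfd, Fgf21, Apoe and Adipoq lie between 4.89 and 6.83, Angptl4 lies at 1.41, Nampt at 0.32 and Apln at -1.21.

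The order of the levels was different in the groups. In untreated cells it was Nampt, Angptl4, Apln, Apoe, Adipoq, Cfd and Retn, with Lep and Fgf21 at 0. The samples of Apoe and Adipoq overlapped, and so did those of Cfd and Retn, so neither pair can be ordered. After 5-AZA the order was Apoe, Adipoq, Cfd, Nampt, Angptl4, Retn, Fgf21, Apln and Lep, and only the samples of Angptl4 and Retn overlapped. Within the groups, 5 of the 9 genes were higher in untreated replicate 1 and 2 in replicate 2, while 7 were higher in 5-AZA replicate 102 and 2 in replicate 101. Over all genes tested, 63.5% were higher in untreated replicate 1 and 74.6% in 5-AZA replicate 102.

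With either untreated sample left out, 6 genes were called higher and 1 lower, but the size of some changes moved by more than 1.5 times. Without untreated replicate 1 the log2 change was 5.56 for Adipoq, 7.60 for Cfd and 8.24 for Retn, and without untreated replicate 2 it was 4.22, 5.59 and 5.43. Without 5-AZA replicate 101, 2 genes were called higher (Apoe and Fgf21) and 0 lower, and without 5-AZA replicate 102, 1 was (Fgf21), with 0 lower. In the fits without a 5-AZA sample the spread of the lone one was taken from the untreated pair. Fgf21 was at 0 in both untreated samples, so it had no spread of its own there. It passed the limit on low values only through the 5-AZA samples, so its direction was fixed in every fit. In the fits without a 5-AZA sample, log2 changes were between 4.64 and 5.14 for Adipoq, between 6.37 and 6.82 for Cfd and between -1.23 and -1.19 for Apln. Without the limit on low values, 4 of the 9 genes were called higher and 1 lower (6.73% and 0.474% of 17510 genes), as Retn (adjusted p = 0.0712, limma) and Angptl4 (adjusted p = 0.0506, limma) were then above the threshold.

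The receptors and partners of these proteins were followed in a list of 20 genes, of which 15 were tested. Of these, 5 were called higher and 1 lower, beside 13.1% and 1.32% of all genes tested. The median log2 change was 0.30, against 0.05 over all genes tested. The lower call, Cdh13, was lost without 5-AZA replicate 101, and 3 genes of the list were called lower under median centring and under quantile normalization. For adiponectin, the receptor Adipor2 rose from 13.4 and 15.3 to 35.9 and 40.1 FPKM (log2 change 1.40, limma adjusted p = 4.94e-05). Cdh13, the T-cadherin that binds adiponectin at the cell surface, fell from 5.09 and 4.22 to 1.82 and 1.57 FPKM (log2 change -1.40, adjusted p = 0.00102, limma). Adipor1 was listed at 29.3 to 36.3 FPKM over the 4 samples and was not called (log2 change -0.18, adjusted p = 0.289, limma).

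The leptin receptor Lepr stayed at or below 0.185 FPKM and the apelin receptor Aplnr at or below 0.126 FPKM in every sample, and neither was tested. Apela, the other ligand of Aplnr, was listed at 0 in the untreated samples and at 0.156 and 0.199 FPKM after 5-AZA. For Fgf21, the receptor Fgfr1 was present in all samples at 32.2 to 45.5 FPKM (log2 change 0.30, adjusted p = 0.122, limma). Its co-receptor Klb was listed at 0 in the untreated and at 0.293 and 0.315 FPKM in the 5-AZA samples, and since it passed the limit on low values only through the latter, it could be tested only because it was higher there. Fgfr4 reached 0.134 FPKM at most. Cap1, a reported receptor of resistin, had a log2 change of -0.41 (adjusted p = 0.0183, limma), under the 2-fold limit.

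Lpl, the lipoprotein lipase that Angptl4 inhibits, rose from 2.75 and 2.35 to 63.8 and 89.5 FPKM, a log2 change of 4.84 (limma, adjusted p = 5.04e-07). Lmf1, which lipases need to mature, was listed at 7.86 to 11.4 FPKM (log2 change -0.27, adjusted p = 0.324, limma), and Gpihbp1, the anchor of Lpl on capillaries, was listed at 0 in all samples. Complement factor B (Cfb), the substrate of Cfd, rose from 0.0113 and 0.0534 to 2.15 and 3.31 FPKM, and C3, the component it acts on next, from 6.72 and 5.63 to 38.2 and 52.7 FPKM (adjusted p = 3.15e-05 and 6.70e-06, limma). Cfb passed the limit on low values only through the 5-AZA samples, so it could be tested only because it was higher there.

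Of the receptors that bind Apoe, 4 are given here and none of them was called. Vldlr (log2 change 0.64), Sort1 (0.58), Lrp1 (0.17) and Lrp8 (-0.91) had adjusted p-values between 0.0180 and 0.482 (limma).

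Adiponectin is folded and assembled in the endoplasmic reticulum before it is secreted. Of 8 genes of that machinery, 2 were called higher and none lower, beside 13.1% and 1.32% of all genes tested. The median of the log2 changes was 0.25. The 2 called genes were Ero1l, an oxidase that works with Erp44 (log2 change 1.36, adjusted p = 2.06e-05, limma), and Gstk1. Gstk1 was listed at 0 in the untreated and at 0.833 and 0.718 FPKM in the 5-AZA samples, through which alone it passed the limit on low values. Both were named after their values were seen. The abundant chaperones Calr, Hspa5, Canx and Pdia6 had log2 changes from -0.16 to 0.30 and were not called.

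Of 28 other secreted adipokines, 19 were tested, 10 were called higher and 0 lower, beside 13.1% and 1.32% of all genes tested. The median log2 change of the list was 1.20. Some of the 10 passed the limit on low values only through the 5-AZA samples. Rarres2, the precursor of chemerin, rose from 16.1 and 7.29 to 47.1 and 57.8 FPKM (log2 change 2.25, adjusted p = 7.77e-04, limma), and Wisp2, a matricellular Wnt modulator, by 1.26. Fstl1, the most abundant of the list, stood at 1132 to 1268 FPKM and was not called (log2 change -0.06, adjusted p = 0.759, limma). Without 5-AZA replicate 101, without replicate 102, or without the limit on low values, the list held 1 call.

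Among 11 relatives of Retn, Angptl4 and Fgf21 in the same gene families, 4 were tested, with 1 called higher and 1 lower (13.1% and 1.32% of all genes tested were). The lower call was lost without 5-AZA replicate 101, without replicate 102 and without the limit on low values. Angptl1 fell from 57.5 and 77.1 to 23.2 and 26.9 FPKM (log2 change -1.41, adjusted p = 1.86e-04, limma). Angptl2 had a log2 change of -0.54 (adjusted p = 0.00577, limma), and Angptl6 one of 1.69 (adjusted p = 0.0517, limma), with 0.922 and 0.167 FPKM in the untreated and 1.52 and 1.66 FPKM in the 5-AZA samples. Angptl8 was listed at 0 in the untreated and at 0.560 and 0.321 FPKM in the 5-AZA samples, through which alone it could be tested. Without untreated replicate 1, 2 relatives were called higher, and with a pseudocount of 1 FPKM or quantile normalization 0 were. Retnla, Retnlb, Retnlg and Fgf23, named after their values were seen, were listed at 0 in all 4 samples.

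Most of the adipocyte markers were higher after 5-AZA. All 20 were tested, 17 were called higher and 0 lower, beside 13.1% and 1.32% of all genes tested. Their median log2 change was 3.59. Some of the 17 had an untreated mean under 0.1 FPKM. These passed the limit on low values only through the 5-AZA samples, so their rise was fixed in advance. Fabp4, Gpd1 and Acsl1 were above 0.1 FPKM in both untreated samples. Without 5-AZA replicate 101 there were 11 calls, and without replicate 102 there were 10. Fabp4, the fatty acid carrier of fat cells, rose from 22.9 and 9.66 to 887 and 1196 FPKM (log2 change 6.10, adjusted p = 4.81e-06, limma), Gpd1 by 5.07 and Acsl1 by 2.57. Plin4 had a log2 change of -0.45 (adjusted p = 0.0457, limma), and Pparg, the master regulator of fat cells, named after its values were seen, had one of 0.92 (adjusted p = 0.0114, limma), under the 2-fold limit. Summed over the list, the level was 149 FPKM in each untreated sample and 1249 and 1719 FPKM in the 5-AZA samples.

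Markers of other cell types were read in the same way. Of 12 macrophage markers, Cd68 was listed at 1.16 and 1.47 FPKM in the untreated and at 2.27 and 3.69 FPKM in the 5-AZA samples, Lyz2 at 0.80 to 1.70 FPKM over the 4 samples, and Cx3cr1 and Csf1r at 0.103 FPKM or less. Ptprc, Itgam and Fcgr1 reached 0.0748 FPKM at most, and the other 5 (Adgre1, Tyrobp, Aif1, C1qa and C1qb) were at 0 in all samples. These last 8 were named after their values were seen. Of the 2 tested, Cd68 was called higher (log2 change 1.09, adjusted p = 0.0191, limma) and Lyz2 was not, beside 13.1% of all genes tested called higher and 1.32% lower. The Cd68 call was lost without untreated replicate 1, without either 5-AZA replicate in turn, and under 6 other alternatives (a pseudocount of 1 FPKM, no limit on low values, median centring, quantile normalization, eBayes without trend and the highest transcript of each gene). The summed level of the list was 2.18 to 3.26 FPKM in the untreated and 3.39 to 5.28 FPKM in the 5-AZA samples.

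Skeletal muscle markers were also higher: all 14 tested of 15 were called higher, beside 13.1% of all genes tested. Their median log2 change was 6.95, with Mylpf, Acta1, Tnnt3 and Ckm between 8.17 and 9.79. Most of the 14, Ckm among them, had an untreated mean under 0.1 FPKM. These passed the limit on low values only through the 5-AZA samples, so their rise was fixed in advance. Mylpf, Acta1 and Tnnt3 were above 0.1 FPKM in both untreated samples. The summed level of the list was 1.64 and 1.43 FPKM in the untreated and 801 and 1220 FPKM in the 5-AZA samples. Of 10 endothelial genes 6 were tested and 3 called higher (Emcn, Tek and Cdh5, none above 2.24 FPKM in any sample). Emcn and Cdh5 passed the limit on low values only through the 5-AZA samples. Of 10 hepatocyte genes 2 were tested, Ahsg was called higher and Apoh lower, beside 13.1% and 1.32% of all genes tested, and none reached 1 FPKM. Ahsg could likewise be tested only through the 5-AZA samples. The Ahsg call was lost with any 1 of the 4 samples left out, and the Apoh call without untreated replicate 2 or either 5-AZA replicate. Mesenchymal markers had 1 of 13 tested called higher, Thy1, and 0 lower. The called genes of these 3 lists were named after their values were seen. The parts of the culture that each gene of the set comes from were not tested.

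**Figure D4:**
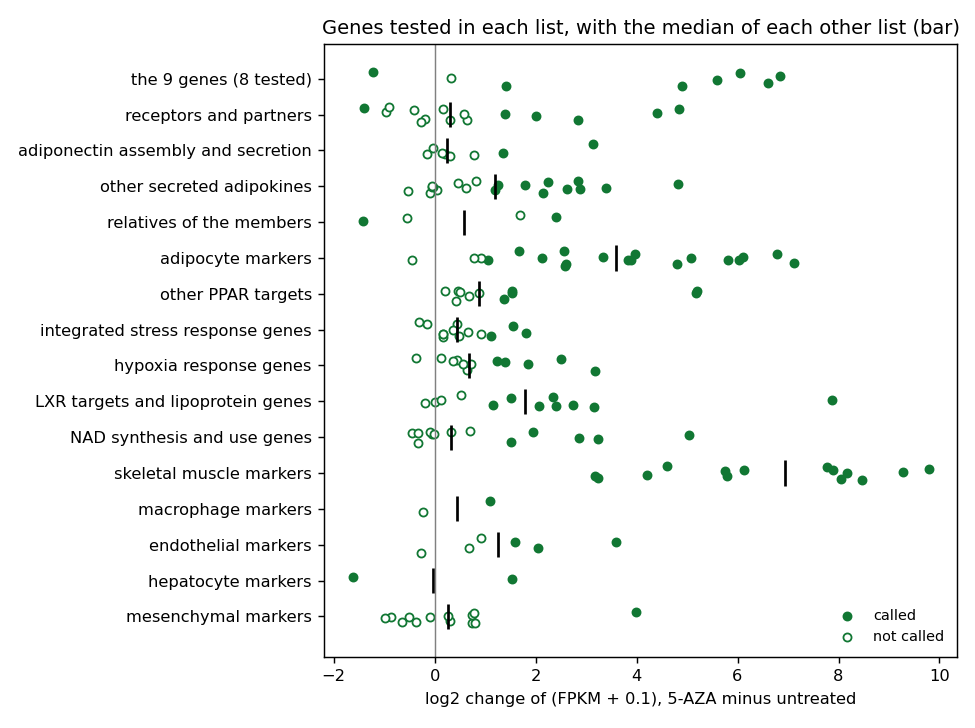
Log2 change of (FPKM + 0.1), 5-AZA minus untreated (x axis), of every gene tested in the set and in 15 gene lists (rows); filled points were called, open points were not, points are jittered vertically, and black bars are the medians of the 15 lists. Of the 15 lists, skeletal muscle markers (median 6.95) and adipocyte markers (3.59) have the medians farthest to the right. Mesenchymal markers (0.26) lie on both sides of 0, from S100a4 at -0.98 to Thy1 at 3.98.

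Genes known to respond to the same signals as single members were read as lists. Over all genes tested, 13.1% were called higher and 1.32% lower. Some called PPAR, LXR and NAD genes passed the limit on low values only through the 5-AZA samples, which fixed their direction. So did Egln3 of the hypoxia list, named after its values were seen. Angptl4 is a target of PPAR factors, and of 13 other such targets 11 were tested, and 5 were higher by the call rule and 0 lower (median 0.88 on the log2 scale). Of the most abundant, Plin2, Acadm and Cpt1a had log2 changes from 0.21 to 0.68 and were not called. Without 5-AZA replicate 101 or 102, 1 gene was called. Angptl4 and Apln also respond to hypoxia, and of 12 hypoxia response genes 5 were higher by the call rule and 0 lower (median 0.67), or 2 with either 5-AZA replicate left out. Car9 rose from 9.49 and 6.58 to 25.7 and 32.5 FPKM (log2 change 1.86, adjusted p = 1.43e-04, limma), while P4ha1, Bnip3 and Ndrg1 had log2 changes from 0.13 to 0.72.

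Fgf21 is also a target of the integrated stress response. Of 13 genes of that response, 3 were higher by the call rule and 0 lower (median 0.43 on the log2 scale). The shares over all genes tested were 13.1% and 1.32%. With either 5-AZA replicate left out, or without the limit on low values, 0 were called. Atf4, the transcription factor at its centre, was listed at 87.3 and 81.2 FPKM in the untreated and at 88.6 and 99.5 FPKM in the 5-AZA samples, and was not called (log2 change 0.16, adjusted p = 0.318, limma), nor were Psat1, Phgdh and Asns. The 3 called genes were Trib3 (log2 change 1.12), Atf3 (1.81) and Slc7a11 (1.54), named after their values were seen.

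Apoe is a target of LXR factors. In a list of 16 LXR and lipoprotein genes, 12 were tested, 8 were called higher and 0 lower, beside 13.1% and 1.32% of all genes tested. The median log2 change of the list was 1.79. The cholesterol exporter Abca1 rose from 10.7 and 11.5 to 28.1 and 36.3 FPKM (log2 change 1.52, adjusted p = 8.58e-05, limma) and Apod by 2.07, while Pltp (-0.19) and Lpcat3 (0.12) were not called. Without 5-AZA replicate 101 the list held 5 calls, and without replicate 102 it held 4. For Nampt, 5 of 13 tested genes of NAD synthesis and use were higher by the call rule and 0 lower (median 0.32), or 2 with either 5-AZA replicate left out. Nnmt, which consumes the substrate of Nampt, rose from a mean of 2.13 to one of 16.2 FPKM (log2 change 2.86, adjusted p = 3.58e-06, limma), and Nadk, Parp1 and Sirt1 were not called.

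The genes on either side of each member were also read, taking the nearest protein-coding gene from the order of RefSeq genes. Of these 18 neighbours 14 were tested, 2 were called higher and 0 lower. Over all genes tested, 13.1% were called higher and 1.32% lower. Apoc1, the apolipoprotein gene beside Apoe, was listed at 0 in both untreated samples and at 21.2 and 25.4 FPKM after 5-AZA. It passed the limit on low values only through the latter, so it could be tested only because it was higher there. On the other side, Tomm40 had a log2 change of -0.10 (adjusted p = 0.553, limma). Apoc4, a further apolipoprotein gene, was listed at 0 in both untreated samples and at 0.493 and 0.368 FPKM after 5-AZA, and was also called higher, again tested only through the 5-AZA samples. Apoc2 was not tested and reached 0.157 FPKM at most. Both were named after their values were seen. Kank3, next to Angptl4, rose from 0.112 and 0.0796 to 0.441 and 0.754 FPKM (adjusted p = 0.00811, limma). Its untreated mean was under 0.1 FPKM, so Kank3 too was tested only through the 5-AZA samples. The neighbours of Adipoq, Rfc4 and St6gal1, had log2 changes of -0.06 and -0.33, and Elane beside Cfd was listed at 0 in all samples. No neighbour of Adipoq, Retn, Cfd or Fgf21 was called, and 3 of these 8 were too low to be tested. The neighbours were chosen after the values of the members had been seen.

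Genes whose profile was nearest to each member were sought among the 11194 tested genes whose mean reached 1 FPKM in one group or the other, by the Euclidean distance of log2 values centred on each gene's mean. With 4 samples in 2 groups such a distance reflects little more than the size of the change and the spread within each pair. The nearest genes to Adipoq were Wfdc12, Mgst1 and Tubb2b (distances 0.18 to 0.36). The gene nearest to Retn was Cfd (0.66), followed by Tnnc1 and Itgb1bp2. The same Tnnc1 and Itgb1bp2, with Plin1, were nearest to Cfd. Cd36 was the nearest to Fgf21 (0.15), before Gm7325 and Gpx3. The nearest to Apoe were Oas1a, Klhl41 and Dpep1, those to Angptl4 Slc43a2, Aldh3a1 and Adgre5, those to Apln Klf12, Cyp2j6 and Tnfrsf11b, and those to Nampt Grasp, Prune and Gpatch2l.

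The values per transcript gave the same calls as the sums. In a fit on 35557 transcripts, of which 2.10% were called higher and 0.262% lower, 11 transcripts of the set were tested, 7 were called higher and 1 lower. These belonged to the same 6 genes and to Apln. Of the transcripts not called, NM_022984.4 of Retn had an adjusted p-value of 0.461, NM_001305819.1 of Apoe one of 0.137 and NM_021524.2 of Nampt one of 0.228 (limma). None of the 4295 circRNAs listed has a gene of the set as its host gene.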

How the data were processed

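Total RNA of 2 untreated and 2 5-AZA samples of C3H10T1/2 was depleted of ribosomal RNA and sequenced from stranded libraries. The authors deposited FPKM values for 75959 RefSeq transcripts. The submitters' processing notes name Trimmomatic, HISAT2, Bowtie2 2.2.9, eXpress 1.5.1 and the build mm9, without their roles. Here transcripts were summed per gene. limma 3.58.1 (lmFit and eBayes with trend, R 4.3.3) was fitted to log2(FPKM + 0.1), a scale that understates changes of low genes, for genes with a mean of at least 0.1 FPKM. p-values were adjusted by Benjamini and Hochberg's approach over all genes tested.  With 2 samples against 2, no exact permutation test can go below 0.333 (two-sided). The genes of the set and the gene lists were chosen with earlier results of these data known. Genes named are the 9, all receptors and partners, the 4 most abundant of each other list and the 3 nearest profiles, and others are said in the text to be named or chosen after their values were seen. Some genes that this rule names are not reported here. Windows and gene order come from RefSeq tables of GRCm38.p6, matched by symbol (8 of 9 genes). Read depth behind single values is unknown. In 20 simulated draws on 13199 genes, 75.8% of 4-fold rises and 71.7% of 4-fold falls were recovered, and 1.47% of calls were false. Each draw changed 200 genes, with equal numbers of rises and falls and normal noise. The real calls were more numerous and mostly rises, so 1.47% is not the false share among them. lncRNA and circRNA values were not used here. Other pseudocounts, limits, scalings, eBayes without trend, single transcripts and the omission of each sample were tried.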

Additional observations from a re-analysis of the deposited data

How the results depend on the processing

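The direction of the 8 genes tested was the same under every alternative tried, and none was reversed. For Fgf21, at 0 in both untreated samples, the direction was fixed in advance. Over these genes, 91 values kept their side of the threshold and 13 no longer passed it, all of them under the omission of a 5-AZA sample or without the limit on low values. With each sample left out in turn, 1 to 6 genes of the set were called higher and 0 to 1 lower, and over all genes 785 to 1616 higher and 50 to 181 lower. Over all genes, a pseudocount of 1 FPKM gave 875 higher and 86 lower, no limit on low values 83 lower, a limit of 1 FPKM 845 higher, and quantile normalization 1041 higher and 886 lower. Among the lists, the receptors and partners had 4 to 6 genes called higher under every alternative, the other PPAR targets 2 and the endothelial markers 1 under a pseudocount of 1 FPKM and under quantile normalization. The cause of these differences was not tested. No paired analysis was possible because the groups share no replicate numbers. With 2 samples a group and unknown read depth, a gene that was not called has not been shown to be unchanged, and Lep was not detectable beyond 0.0274 FPKM.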
